A study of Gallus gallus with 9 samples.

Results

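The genes of respiratory complexes II to V were followed in 9 microarrays of sorted cells from the chicken embryonic gonad. Members were all genes whose platform symbol began with SDHA, SDHB, SDHC, SDHD, UQC, COX and a digit, or ATP5, or was CYC1 or CYCS, and whose probe set carried 1 symbol. This gave 48 of 13009 named genes, covered by 84 of 38439 tested probe sets. They fell into 6 genes of complex II, 10 of complex III, cytochrome c itself, 17 of complex IV and 14 of complex V. The symbol rule also took in assembly factors, which help to build a complex without staying in it, and these were 15 of the 48. The subunit genes SDHB, SDHC and CYC1 were not analysed here, and neither was COX7A2, whose probe set carries a further gene symbol.

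The study compared PGC with GSC preparations, both separated by magnetic cell sorting from gonads of embryos labelled WL at 6.5 days. PGC commonly stands for primordial germ cells, the embryonic precursors of eggs and sperm, while the labels leave GSC unexplained. There were 3 PGC and 6 GSC arrays, which limits the precision of every value. No genotype, treatment, embryo sex or sorting antigen is stated for either fraction in the sources used here, and the origin of the replicates is left unsaid. The p-values therefore reflect only how far these preparations varied, and that variation could be technical. Values are log2 expression from RMA, a method that summarises the probes of a probe set after normalizing arrays.

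In the inner mitochondrial membrane, complex II oxidises succinate and complex III passes the electrons on to cytochrome c, a small carrier. Complex IV hands them to oxygen, and complex V, the ATP synthase, uses the proton gradient so built to make ATP. Complexes III and IV carry heme groups, complex IV also carries copper, and complex II carries flavin and iron-sulfur clusters. Dedicated assembly factors make or insert these cofactors. Mitochondria reach the next generation through the female germ line.

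The sorted fractions differed in their cell type markers. All 8 measured germ cell markers were higher in PGC, where their mean log2 value per array was 7.84 to 8.64, against 4.32 to 4.64 in GSC. Of 12 gonadal somatic markers, 10 were lower in PGC (array means 5.84 to 7.37, against 7.92 to 8.26 in GSC), and 6 of 7 endothelial markers were lower (3.87 to 5.21, against 5.67 to 6.21). Of 9 markers of the mesonephric epithelium, the tubules of the embryonic kidney next to the gonad, 6 were higher and 3 lower in PGC (6.09 to 6.63, against 4.33 to 4.84). Among 9 erythroid markers 3 were lower (8.64 to 9.42, against 9.42 to 10.00), and among 6 leukocyte markers 3 were lower and 1 higher (3.66 to 4.07, against 4.24 to 4.50). Of 11 striated muscle markers 4 were higher and 2 lower (3.54 to 3.81, against 3.17 to 3.32). SPI1 of the leukocyte list and TNNT2, TNNI1 and MYOG of the muscle list lay below the background mark in all PGC arrays. MYL3, 1 of the 4 muscle markers called higher, lay below it in 8 of 9 arrays. That mark is 2.88, the 95th percentile of 57 reporter probe sets that match no chicken gene. PGC replicate 3 correlated with the GSC arrays at 0.956 or more over all probe sets, and the other 2 PGC arrays at 0.950 or less.

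The 3 of 48 members called with a change of at least 2-fold were all assembly factors. Of the 48 members 17 rose in PGC, which is 35.4%, and 1 fell, which is 2.08% (limma, adjusted p under 0.05), while 22.5% of all genes were called higher and 19.5% lower, 42% together. Among the 15 assembly factors 8 rose and COX17 fell, and among the other 33 members 9 rose and 0 fell. At an unadjusted p under 0.05 the counts of lower members were 2 among assembly factors and 0 among the others. The median log2 fold change was 0.58 for assembly factors and 0.17 for the other members, and it was -0.02 over all genes. The 3 members that changed at least 2-fold were SDHAF4, COX10 and COX19, all higher. As 3 of 48 this is below the 8.05% of all genes called higher by that much, beside 6.06% called lower. With the mean of all probe sets of a gene their log2 fold changes were 0.79, 0.99 and 0.84, each short of 2-fold. In bulk fractions, fewer cells of a type and less RNA per cell cannot be told apart.

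In 17 members all 3 PGC arrays lay above all 6 GSC arrays, against 19.7% of all genes, and in COX17 alone they lay below, against 16.7%. Of the 17 members that rose, 14 were without overlap, a share close to that over all genes, where it was 2448 of 2923. Under each of 19 alternative analyses 7 members held their call, namely SDHAF2, SDHAF3, SDHAF4, COX10, COX15, COX16 and COX19, which are assembly factors without exception. Whichever single array was left out, 9 of the 17 stayed called, these 7 with ATP5J and COX6A1. How many of all called genes held in these ways was not counted, so neither count can be set against a background. With a separate variance for each fraction 9 members rose and 0 fell, and the shares over all genes are not given here. Without PGC replicate 3, 13 members rose and 4 fell, beside 25.5% and 22.9% of all genes.

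**Figure D1:**
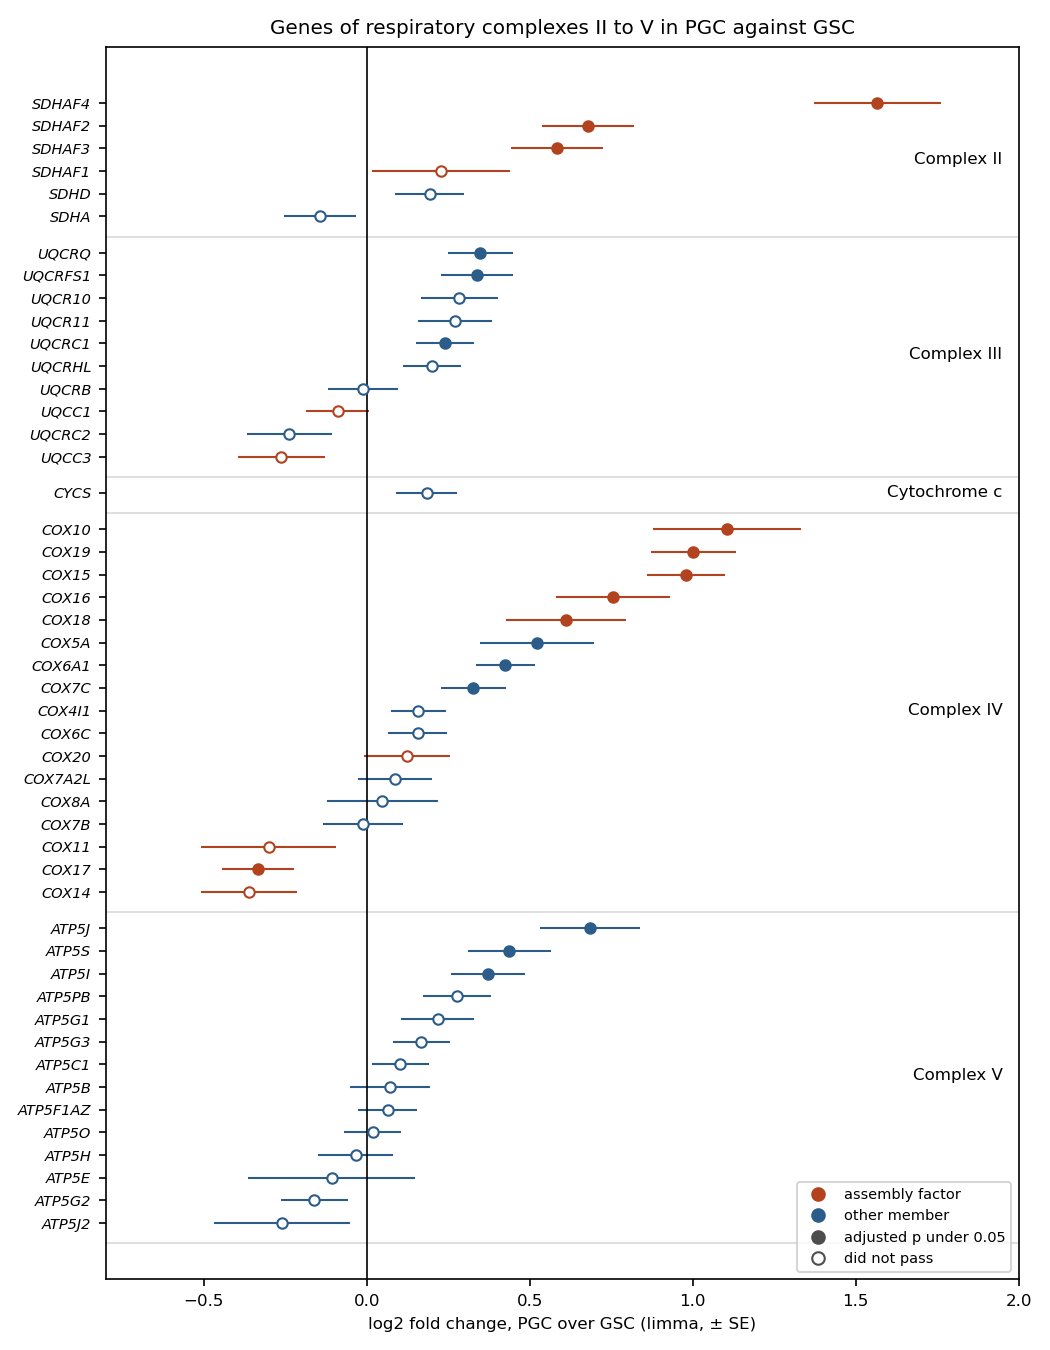
Log2 fold change of each of the 48 members, PGC over GSC, with limma's standard error as the bar. Members are grouped by complex, with assembly factors in red and the others in blue, and filled points passed the test. The assembly factor SDHAF4 lies farthest to the right at 1.57, and no blue point exceeds 0.69.

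For complex II, 3 of 4 assembly factors rose (75%, against 22.5% of all genes), and neither of the measured subunits passed the test. SDHAF4, which protects the flavin-carrying subunit before it joins the complex, measured 7.39, 6.87 and 6.63 in PGC replicates 1 to 3, against a lowest value of 4.92, a median of 5.49 and a highest value of 5.70 in GSC. The groups did not overlap, and the lowest PGC array stood well clear of every GSC array. This was a 2.96-fold difference (log2 fold change 1.57 ± 0.19 SE, limma adjusted p = 8.99e-05), the largest among the 48 members. With the mean of its 3 probe sets, 1 of which lay below the mark, the log2 fold change was 0.79.

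SDHAF2, which is needed to attach flavin to SDHA, measured 8.19, 7.83 and 7.96 in PGC, against 6.98 to 7.56 with a median of 7.34 in GSC. It rose by 0.68 ± 0.14 SE on the log2 scale (limma adjusted p = 0.00245), without overlap of the groups. Of its 3 probe sets another was called higher (0.64), and the remaining one was not called (0.26, limma adjusted p = 0.115 over all probe sets). SDHAF3, which takes part in maturing the iron-sulfur subunit, measured 6.89, 7.06 and 6.64 in PGC and 5.99 to 6.54 with a median of 6.28 in GSC. It rose by 0.58 ± 0.14 SE (limma adjusted p = 0.00637), and PGC replicate 3 lay just above the highest GSC array.

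The fourth factor, SDHAF1, also of the iron-sulfur step, spread widely in PGC at 4.74, 4.44 and 5.57, against 4.47 to 5.01 in GSC, and did not pass (0.23 ± 0.21 SE). SDHA, the catalytic flavoprotein, measured 8.70, 9.06 and 9.16 in PGC and 9.07 to 9.19 in GSC, so that PGC replicate 1 was the array apart. Its log2 fold change was -0.14 ± 0.11 SE. SDHD, a membrane anchor, had a log2 fold change of 0.19 ± 0.11 SE and did not pass, with values of 8.77, 8.80 and 8.92 in PGC against 8.50 to 8.89 in GSC.

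**Figure D2:**
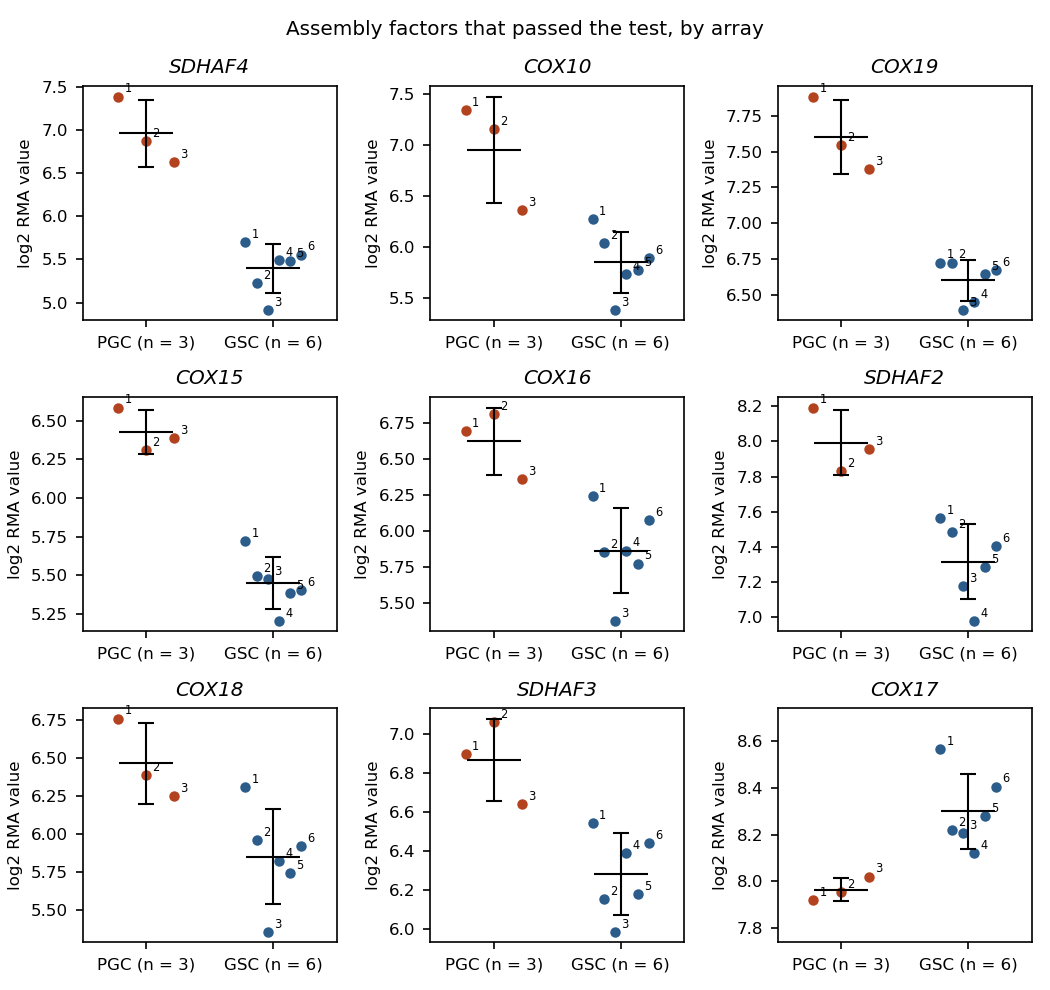
Log2 RMA value in each array for the 9 assembly factors that passed the test, with PGC left of GSC, small numbers for the replicates and black marks for the mean and SD; each panel has its own vertical scale. SDHAF4, COX19 and COX15 show a wide gap between the fractions, COX18 overlaps through GSC replicate 1, and COX17 runs the other way.

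For complex III, 3 of 8 subunits rose (37.5%, against 22.5% of all genes), 0 fell and 5 did not pass, and neither assembly factor was called. The subunits had log2 fold changes from -0.24 to 0.35. UQCRQ, a small subunit, measured 9.37, 9.43 and 9.21 in PGC, against 8.87 to 9.16 with a median of 8.98 in GSC, without overlap (log2 fold change 0.35 ± 0.10 SE, limma adjusted p = 0.0149). UQCRFS1, the Rieske iron-sulfur protein, measured 9.34, 9.30 and 9.47 in PGC, against 8.79 to 9.20 in GSC (0.34 ± 0.11 SE, limma adjusted p = 0.0297). UQCRC1, a core subunit, measured 9.65, 9.53 and 9.55 in PGC and 9.20 to 9.39 in GSC (0.24 ± 0.09 SE, limma adjusted p = 0.0479).

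These 3 calls were thin. The call of UQCRC1 was lost whichever array was left out, that of UQCRFS1 without PGC replicate 1 or 3 or GSC replicate 3 or 5, and that of UQCRQ without PGC replicate 1 or 2. The second core subunit, UQCRC2, ran the other way at 8.37, 8.53 and 8.91 in PGC, against 8.61 to 8.97 in GSC, and did not pass (-0.24 ± 0.13 SE). Without PGC replicate 3, its highest PGC array, it was called lower (-0.39, limma adjusted p = 0.0175). With the mean of all probe sets UQCRC1 (0.14) and UQCRFS1 (0.17) were not called. The second probe set of UQCRC1 had means of 7.82 in PGC and 7.79 in GSC. It was not called (0.03, limma adjusted p = 0.846 over all probe sets). That of UQCRFS1 lay below the mark.

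UQCRHL, which the reference table also lists as UQCRH, the hinge protein that meets cytochrome c1, did not pass although its arrays did not overlap (10.29, 10.30 and 10.34 in PGC, 9.96 to 10.19 in GSC, 0.20 ± 0.09 SE). UQCRB measured 6.46 to 6.85 in PGC and 6.59 to 6.84 in GSC, a log2 fold change of -0.01 ± 0.11 SE. The small subunits UQCR10 (0.28) and UQCR11 (0.27) did not pass either. Of the assembly factors, UQCC1 had a log2 fold change of -0.09 and UQCC3 of -0.26, and UQCC3 was called lower without PGC replicate 3 (-0.45, limma adjusted p = 0.00339).

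CYCS, cytochrome c, measured 9.57, 9.74 and 9.74 in PGC, against 9.39 to 9.65 with a median of 9.50 in GSC. The groups met at PGC replicate 1 and GSC replicate 1, and the difference did not pass (0.18 ± 0.09 SE, limma adjusted p = 0.146). Its second probe set gave 0.28 ± 0.10 SE and passed when all probe sets were fitted (limma adjusted p = 0.0493).

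For complex IV, 8 of 17 members rose (47.1%, against 22.5% of all genes) and 1 fell (5.88%, against 19.5%), and 5 of the 8 were assembly factors. COX10 and COX15 act one after the other in making heme A, the heme that only this complex carries. COX10, which attaches the farnesyl tail, measured 7.35, 7.16 and 6.37 in PGC, against a lowest value of 5.39, a median of 5.84 and a highest of 6.28 in GSC. PGC replicate 3 lay close to GSC replicate 1, and the other 2 PGC arrays stood far above. The gene rose 2.15-fold (log2 fold change 1.10 ± 0.23 SE, limma adjusted p = 0.0023), and its other 2 probe sets were called higher too, at 1.11 and 0.76.

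COX15, which converts the product of COX10 to heme A, measured 6.58, 6.31 and 6.39 in PGC, against 5.21 to 5.72 with a median of 5.44 in GSC. It rose 1.97-fold with a wide gap between the groups (0.98 ± 0.12 SE, limma adjusted p = 8.51e-05). COX19, a copper-related factor of the intermembrane space, measured 7.89, 7.55 and 7.38 in PGC, against 6.39 to 6.72 with a median of 6.66 in GSC, and rose 2.00-fold (1.00 ± 0.13 SE, limma adjusted p = 0.000126). COX16, which helps to mature the mitochondrially encoded subunit with the CuA site, measured 6.69, 6.81 and 6.36 in PGC and 5.38 to 6.24 in GSC (0.76 ± 0.18 SE, limma adjusted p = 0.00486).

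COX18, which inserts part of that same subunit into the membrane, measured 6.76, 6.39 and 6.25 in PGC, against 5.36 to 6.31 with a median of 5.87 in GSC. PGC replicates 2 and 3 lay around the highest GSC array, so the fractions overlapped although the test was passed (0.61 ± 0.19 SE, limma adjusted p = 0.0203). The call was lost without PGC replicate 1, and with the mean of both probe sets (0.25), the second of which lay below the mark.

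COX17, the copper chaperone that feeds the complex, was the single member that fell, at 7.92, 7.96 and 8.02 in PGC, against 8.12 to 8.56 with a median of 8.25 in GSC. The gap between the groups was small, and the gene was 1.26-fold lower in PGC (log2 fold change -0.33 ± 0.11 SE, limma adjusted p = 0.0313). The call was lost without PGC replicate 1 or 2 or GSC replicate 5 or 6. COX11, which places copper in the catalytic subunit, measured 4.42 to 4.81 in PGC and 4.44 to 5.60 in GSC and did not pass (-0.30 ± 0.21 SE).

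COX14, a partner of the newly made catalytic subunit, measured 3.46, 3.36 and 3.90 in PGC, against 3.76 to 4.17 in GSC. It did not pass (-0.36 ± 0.15 SE, limma adjusted p = 0.0699), but was called lower without PGC replicate 3 (-0.52, limma adjusted p = 0.00766). Centring the arrays on their medians also brought COX14 past the threshold, and then 2 members fell. COX20, another factor for the CuA subunit, had a log2 fold change of 0.12 ± 0.13 SE.

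Among the members of complex IV other than assembly factors, 3 of 8 rose (37.5%, against 22.5% of all genes) and 0 fell. COX6A1, the form of subunit 6A found outside heart and skeletal muscle in mammals, measured 11.10, 11.14 and 11.16 in PGC, against 10.53 to 10.80 with a median of 10.73 in GSC. The PGC arrays had an SD of 0.03 and lay clear of GSC, a 1.34-fold rise (log2 fold change 0.43 ± 0.09 SE, limma adjusted p = 0.00306). COX5A measured 5.85, 5.32 and 5.29 in PGC, against 4.62 to 5.40 with a median of 4.93 in GSC, with overlap (0.52 ± 0.17 SE, limma adjusted p = 0.0319). Its call was lost without PGC replicate 1, where the change was 0.34 (limma adjusted p = 0.172), or GSC replicate 2, 3, 5 or 6.

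COX7C, which falls outside the rule for named genes and was picked with its values known, measured 10.18, 10.27 and 10.48 in PGC and 9.83 to 10.05 in GSC (0.33 ± 0.10 SE, limma adjusted p = 0.0218). It lost its call without PGC replicate 3. With the mean of all probe sets COX6A1 (0.17), COX5A (0.25) and COX7C (0.13) were not called, and the second probe set of each of these 3 genes lay below the mark.

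COX4I1, a regulatory subunit, measured 10.95, 11.04 and 11.06 in PGC and 10.80 to 10.92 in GSC, without overlap but short of the threshold (0.16 ± 0.08 SE, limma adjusted p = 0.159). COX6C had a log2 fold change of 0.16, and COX7A2L, which links complexes III and IV in mammals, one of 0.09. COX8A was split within PGC at 8.67, 8.78 and 9.53, against 8.77 to 9.06 in GSC (0.05 ± 0.17 SE). COX7B lay below the mark in all 9 arrays, so that its probe set carries no usable difference.

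**Figure D3:**
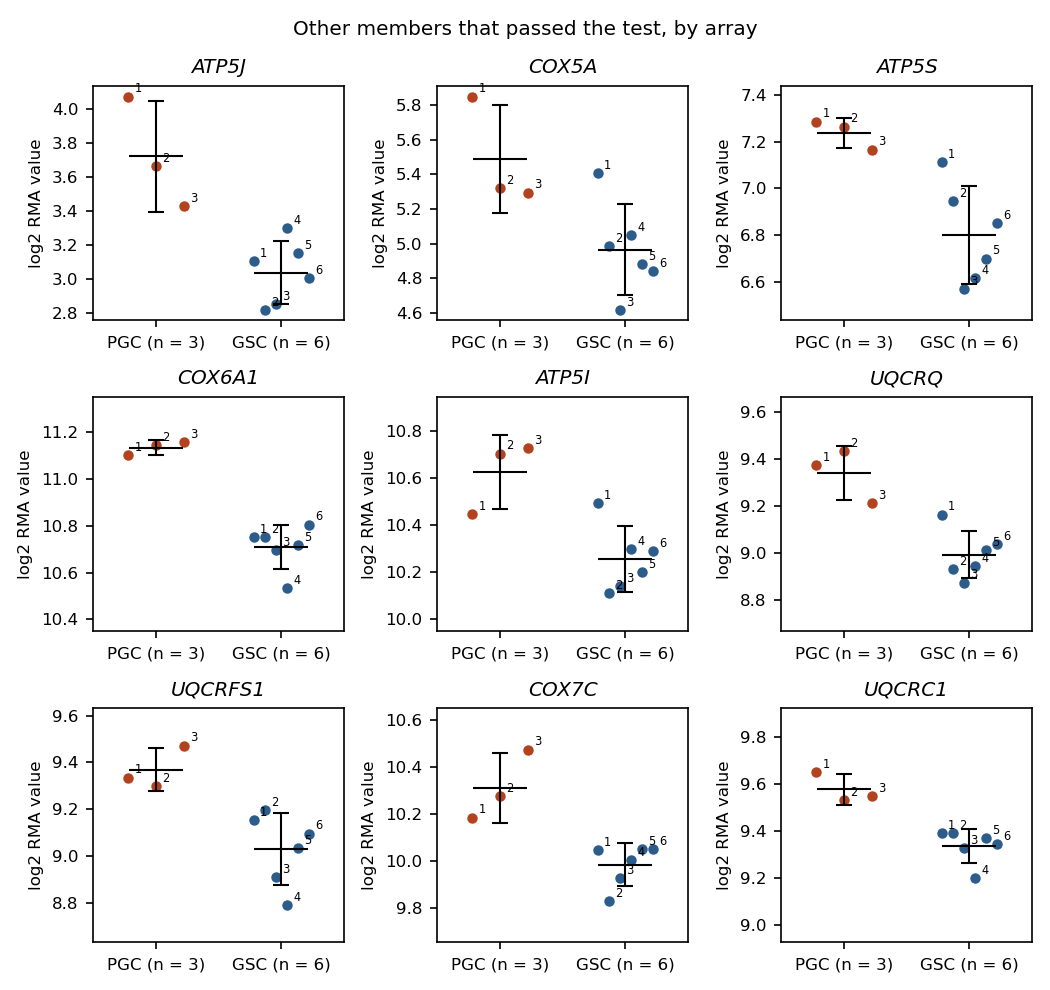
Log2 RMA value in each array for the 9 members other than assembly factors that passed the test, with PGC left of GSC, small numbers for the replicates and black marks for the mean and SD; each panel has its own vertical scale. COX6A1 shows 3 close PGC values above 11, whereas COX5A and ATP5I overlap between the fractions and ATP5J lies near the mark of 2.88 in GSC.

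Of the 14 members of the ATP synthase 3 rose, which is 21.4% and close to the 22.5% of all genes, and 0 fell. The median log2 fold change of 0.09 was the lowest of the 4 complexes, but the rule took assembly factors only for complexes II to IV. Without these the medians were 0.02 for the 2 members left in complex II, 0.26 for complex III and 0.16 for complex IV. In the catalytic F1 head none of 4 genes passed, and at an unadjusted p under 0.05 the count was also 0. ATP5F1AZ, the Z-linked copy for the alpha subunit, measured 10.73, 10.82 and 10.74 in PGC, against 10.52 to 10.74 in GSC (0.06 ± 0.09 SE). Birds carry a W-linked copy as well, and whether the probe set also reads it was not tested. ATP5B, the catalytic beta subunit, measured 10.01, 9.96 and 10.43 in PGC and 9.83 to 10.12 in GSC (0.07 ± 0.12 SE), and ATP5C1, the rotating gamma subunit, measured 9.72 to 9.77 in PGC and 9.53 to 9.72 in GSC (0.10 ± 0.09 SE).

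ATP5E, the epsilon subunit, had a log2 fold change of -0.11 ± 0.26 SE, and no array of either fraction exceeded 4.27. A second probe set of ATP5C1 gave -1.09 ± 0.19 SE (limma adjusted p = 0.00149 over all probe sets), from means of 3.93 in PGC and 5.02 in GSC. With the mean of both, ATP5C1 was called lower (-0.49, limma adjusted p = 0.00626). The probe sets of this gene thus disagree.

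In the stalk that holds the head, ATP5J, coupling factor 6, was called higher at 4.08, 3.67 and 3.43 in PGC, against 2.82 to 3.30 with a median of 3.05 in GSC. Of the 6 GSC arrays 2 lay below the mark, so the rise is given as at least 1.59-fold (log2 fold change 0.69 ± 0.15 SE, limma adjusted p = 0.00393). With the mean of its 3 probe sets the log2 fold change was 0.36, and with GSC replicates 4 to 6 only the call was lost (0.57, limma adjusted p = 0.0535). ATP5PB, the b subunit, measured 10.31, 10.43 and 10.36 in PGC, against 9.93 to 10.34 in GSC, and did not pass (0.28 ± 0.10 SE, limma adjusted p = 0.0529). ATP5O and ATP5H had log2 fold changes of 0.02 and -0.03.

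ATP5G1, ATP5G2 and ATP5G3 encode the same mature c subunit of the membrane ring, and none passed. ATP5G3 measured 11.07, 11.08 and 11.11 in PGC, against a lowest value of 10.79 and a median of 10.94 in GSC, without overlap (0.17 ± 0.09 SE, limma adjusted p = 0.149). ATP5G1 measured 9.68, 9.82 and 9.86 in PGC and 9.30 to 9.74 in GSC (0.22 ± 0.11 SE), and ATP5G2 lay below the mark in all 9 arrays.

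ATP5I, the e subunit of the membrane part, measured 10.45, 10.71 and 10.73 in PGC, against 10.11 to 10.49 with a median of 10.25 in GSC, and GSC replicate 1 overlapped PGC replicate 1 (0.37 ± 0.11 SE, limma adjusted p = 0.021). Its call was lost without PGC replicate 2 or 3. Like COX7C, ATP5I lies on chromosome Z, and a part of embryo sex in these values was not tested. ATP5S, a coupling factor that is not among the core subunits, measured 7.29, 7.26 and 7.17 in PGC, against 6.57 to 7.11 with a median of 6.78 in GSC (0.44 ± 0.13 SE, limma adjusted p = 0.0172). That call was lost without PGC replicate 1 or 2. ATP5J2 did not pass (-0.26 ± 0.21 SE), while another of its 5 probe sets was called higher (0.32, limma adjusted p = 0.0328 over all probe sets).

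Assembly factors and the other members took different places within the PGC arrays. PGC replicate 3 was the lowest PGC array for 9 of 15 assembly factors, and the highest for 20 of the other 33 members. The same counts over all genes, or over genes of like level, were not made, so a difference by role was not tested. The median deviation from the GSC mean over the assembly factors was 0.61, 0.52 and 0.39 in PGC replicates 1, 2 and 3, against -0.14 to 0.27 in GSC. Over the other members it was 0.14, 0.17 and 0.23 in the PGC replicates, against -0.08 to 0.12 in GSC. The germ cell marker means of the same 3 arrays were 8.64, 8.52 and 7.84, and the gonadal somatic marker means 5.84, 6.44 and 7.37. The mesonephric marker means were 6.09, 6.56 and 6.63, over a list with 6 markers higher and 3 lower in PGC. The 3 lower ones were EMX2 (log2 fold change -1.49), UMOD (-1.32) and PAX2 (-0.62), whose values by array are not given here. The markers of this list with the largest rise did not share 1 order over the PGC arrays. SLC34A2 (6.91, 7.02 and 6.24 in PGC replicates 1, 2 and 3) and CDH1 (8.46, 8.56 and 8.24) were lowest in replicate 3. SLC3A1 (6.99, 8.01 and 7.48) and CUBN (7.63, 8.55 and 8.30) were lowest in replicate 1. The part of any of these cell types in the results was not tested.

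Within GSC the arrays were not level either. GSC replicate 1 was the highest GSC array for 32 of 48 members, GSC replicate 4 the lowest for 21 and GSC replicate 3 for 18. Without GSC replicate 1, 19 members rose and 1 fell, and the shares over all genes are not given here. The counts of highest and lowest GSC arrays were not made over all genes either, so they have no background.

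**Figure D4:**
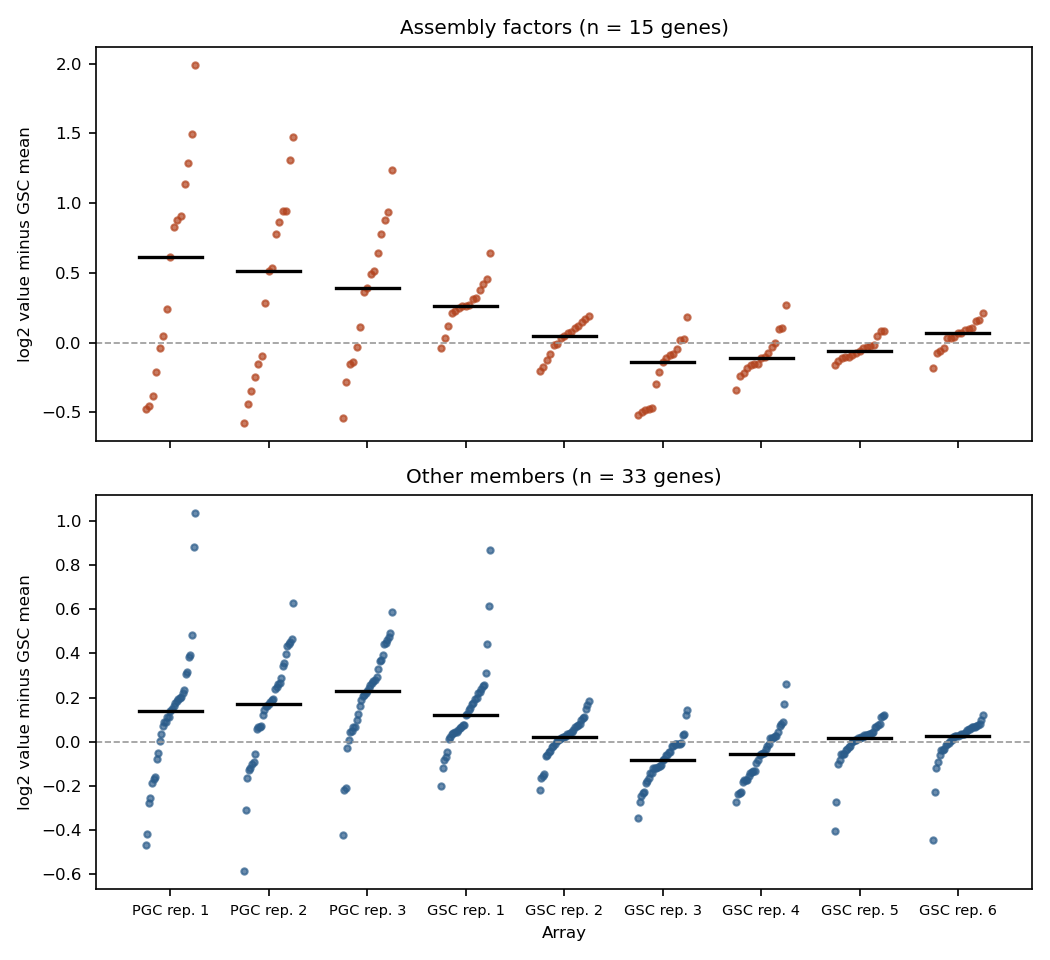
Log2 value of each member minus its mean over the 6 GSC arrays, per array, with assembly factors above and the other members below; each point is a gene and black bars are medians. The assembly factor medians are 0.39 to 0.61 in the PGC arrays, and those of the other members 0.14 to 0.23, with GSC replicate 1 the highest GSC array in both panels.

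The level of a probe set was set beside these counts, since most subunits read high. Of the 21 members with a mean of at least 9 on the log2 scale, 6 rose and 0 fell, which is 28.6% and 0%, with a median log2 fold change of 0.18. Over all 562 genes of that level 16.4% were called higher and 25.4% lower, with a median of -0.02 and a largest rise of 2.93. Of the 25 members between the mark and 9, 11 rose and 1 fell, which is 44% and 4%. The share over all genes of that band was not counted. All 15 assembly factors were among these 25 members, so role was tied to level. The median SD over members was 0.17 in PGC and 0.14 in GSC.

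More than 1 probe set was present for 23 members. Of the 11 called ones among these, 5 had another probe set called the same way and 0 had one called the opposite way. Of the 12 that were not called, 6 had another probe set that was called. It was higher for UQCR10 (0.43), CYCS (0.28), COX6C (0.43) and ATP5J2 (0.32), and lower for ATP5C1 (-1.09) and ATP5G1 (-0.31). For ATP5J2, ATP5C1 and ATP5G1 the sign was opposite to that of the probe set used (-0.26, 0.10 and 0.22). In the second probe sets of COX6C and ATP5G1 the mean of the dimmer fraction lay below the mark, as did both means of the further called probe set of ATP5J.

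Further mitochondrial lists were counted in the same fit, and differences between lists were not tested. By list the share called higher ran from 12.5% to 51.5%, beside 22.5% of all genes called higher and 19.5% lower. Of 18 assembly factors of complexes II to V that the symbol rule did not take, 7 rose and 1 fell, with a median log2 fold change of 0.27. LYRM7, which guards the Rieske protein before its insertion in complex III, rose 2.96-fold (1.56 ± 0.26 SE, limma adjusted p = 0.000565), and TMEM70, a factor of ATP synthase assembly, rose 2.93-fold (1.55 ± 0.19 SE, limma adjusted p = 8.05e-05). CMC2 rose by 0.75 and HCCS, which attaches heme to cytochrome c, by 0.72. The 1 that fell was ATPAF1 (-0.29), and ATPAF2, its counterpart for the alpha subunit of ATP synthase, rose by 0.65, both named with their values known.

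Of 33 complex I subunits 17 rose and 1 fell, with a median of 0.30, beside 17 and 1 of 48 here. NDUFA5 rose by 1.09, NDUFS4 by 0.95, NDUFA8 by 0.77 and NDUFS1 by 0.59. A list of 16 genes joined the tricarboxylic acid cycle, which supplies succinate to complex II, with the enzymes that feed pyruvate into it, and 2 rose and 1 fell, with a median of 0.12. Both that rose, PDHX (0.73) and PDHA2 (0.52, matched through the synonym PDHA1), encode parts of the pyruvate dehydrogenase complex and not of the cycle. The gene that fell was DLST (-0.46), a part of the oxoglutarate dehydrogenase complex of the cycle. PDHX and DLST lost their calls without PGC replicate 1 or 2.

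Of 18 genes for mitochondrial biogenesis and DNA maintenance 6 rose and 2 fell, with a median of 0.13. PPARGC1A, a coactivator of respiratory genes, rose by 0.79 ± 0.16 SE, the nuclear receptor ESRRG by 0.64, the rRNA methyltransferase TFB1M by 0.63 and GABPA, an ETS factor that binds promoters of respiratory genes, by 0.54. GABPA lost its call without PGC replicate 1 or 2, and TFB1M without PGC replicate 2. TFAM, which packs mitochondrial DNA, was 1 of the 2 that fell (-0.35, limma adjusted p = 0.0422), and it was named with its value known.

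Among 11 genes of nucleotide carriers, outer membrane pores and import, 4 rose and 1 fell, with a median of 0.12. The pore gene VDAC1 rose 2.84-fold (1.51 ± 0.14 SE, limma adjusted p = 1.03e-05) and the import receptor TOMM70 2.13-fold (1.09 ± 0.09 SE), while VDAC2 fell by 0.46. The vacuolar proton pump, a rotary relative of the ATP synthase that acidifies compartments, was counted as well. Of its 18 genes 7 rose and 3 fell, with a median of 0.06, from ATP6V1G3 at -1.97 ± 0.29 SE to ATP6V1H at 1.24 ± 0.19 SE, with ATP6V1C2 at -1.10 and ATP6V1A at 0.79.

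**Figure D5:**
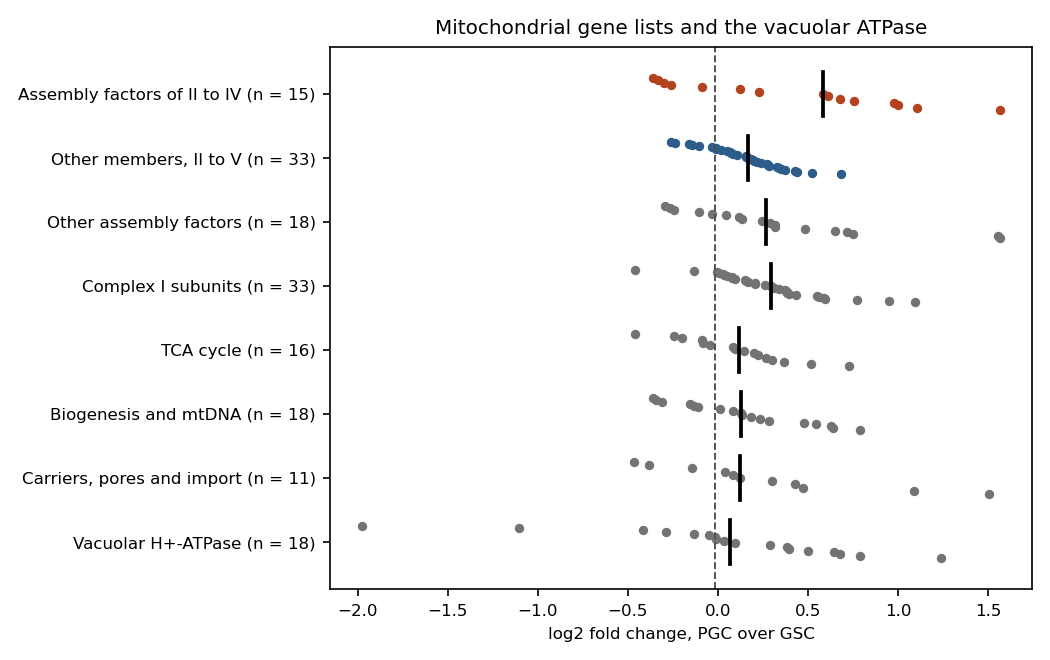
Log2 fold change, PGC over GSC, of each gene in the 15 assembly factors, the other 33 members and 6 further lists; points are genes, black bars list medians and the dashed line the median of all genes at -0.02. The assembly factor median of 0.58 lies right of the other medians, which run from 0.06 to 0.30.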

How the data were processed

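The authors deposited a log2 expression level for each probe set of the Affymetrix GeneChip Chicken Genome Array, where the submitters' processing notes name RMA without a version. The log2 scale was inferred from the range of the deposited values. RMA compresses dim probe sets, so folds of dim genes are understated. No detection calls were used, and array medians lay between 3.03 and 3.12. The 96 AFFX control probe sets were left out.

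Symbols came from the platform annotation, and a probe set carrying more than 1 symbol was left unnamed. All 48 members had an Entrez identifier in a RefSeq table of assembly GRCg7b, used for names and chromosomes only. Each gene was represented by its brightest probe set, judged by the mean of all 9 arrays. The model was limma 3.58.1 under R 4.3.3 (lmFit and eBayes, two-sided), cell fraction being the single term, with Benjamini-Hochberg adjustment over 13009 genes and a threshold of 0.05. Standard errors are limma's. The fit was also run on simulated data in which both fractions had the spread of the GSC arrays. In the real data the SD was larger in PGC for 8708 of 13009 genes (median 0.23, against 0.16 in GSC). That run therefore does not show how often the fit calls unchanged genes here. Where arrays of the dimmer fraction lay below the reporter mark, they were set at it and the fold is a lower bound.

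The members, lists and tests were chosen with earlier results of these data known. Named members were 23 fixed symbols, up to 6 risers per complex and every called member that fell. Of the fixed symbols, SDHB, SDHC, CYC1, COX4I2, COX6A2, COX7A1 and COX7A2 were not among the members. The remaining members were described, with values known, so that all are accounted for. From each further list up to 4 called genes with the largest change were named. Alternatives were another unit, probe set rule, filter, scaling, variance model, pairing or set of arrays.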

Additional observations from a re-analysis of the deposited data

Results flagged for a closer look

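In the 6 GSC arrays, 4 of 48 members had 1 array that stood apart from the others by Dixon's test, where chance flags about 1 in 20 groups. All 4 were low values of GSC replicate 4. ATP5F1AZ measured 10.52 there, against 10.73 to 10.74 in the other GSC arrays, and ATP5B measured 9.83, against 10.09 to 10.12. UQCRC1 measured 9.20 in that array, against 9.33 to 9.39, and UQCRHL 9.96, against 10.10 to 10.19. For ATP5F1AZ, GSC replicates 2, 5 and 6 held the same value (10.7275), and such ties narrow the spread that the test relies on. The PGC fraction, with 3 arrays, was too small for this test.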

How the results depend on the processing

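Over 19 alternatives the median log2 fold change of the members stayed between 0.15 and 0.21, and the count of members higher in PGC ranged from 9 to 23, against 17. It was 9 with a separate variance for each fraction, 9 with GSC replicates 1 to 3 only, 11 with GSC replicates 4 to 6 only and 12 to 19 when 1 array was left out. The count was 23 where the variance could follow the expression level. ATP5G3, ATP5PB, COX4I1, UQCR10, UQCR11 and UQCRHL, which are not assembly factors, were then called higher as well. The share of all genes called under that model is not given here. The count of members lower in PGC, 1 as reported, was 0 with a separate variance and with GSC replicates 1 to 3 or 4 to 6 only, 2 with the mean of all probe sets and with arrays centred on their medians, and 0 to 4 when 1 array was left out (0 without PGC replicate 1 or 2 or GSC replicate 5 or 6, and 4 without PGC replicate 3). Over all genes 5466 were called, and 3394 with GSC replicates 1 to 3 only.

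PGC and GSC share replicate numbers 1 to 3, but nothing in the labels ties equal numbers together, and the deviations of equal-numbered arrays correlated at 0.18, -0.34 and 0.11. With the replicate number as a block, 9 members were higher, 0 were lower and 3132 genes were called.

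Of the members named by rule, ATP5C1 (-0.49) and ATP5G1 (-0.046) reversed with the mean of all probe sets, and ATP5B and COX8A without PGC replicate 3, where the cause was not tested. Leaving out 1 array gave -0.076 to 0.16 for ATP5B and -0.22 to 0.21 for COX8A. None of these 4 had been called. Uncalled members outside that rule changed sign as well, among them ATP5O (-0.12) and ATP5J2 (0.08) with the mean of all probe sets. SDHAF1 did so without PGC replicate 3 (-0.10). For arrays, the number of arrays and the dim range near the reporter mark limit the precision.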
